A study of Mus musculus with 72 samples.

Results

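Cdx1, Cdx2, Cdx4, Nkx1-2, Tbx6 and Msgn1 are 6 transcription factor genes of the caudal epiblast and the mesoderm that forms from it. They were taken by name from 45321 mouse genes, and each was represented by its transcript with the highest total count. All 6 passed the filter on low counts, which kept 18273 genes for testing. The series measured polyadenylated RNA of mouse embryonic stem (ES) cells with and without Nup133, a scaffold subunit of the nuclear pore, before and during neural differentiation.

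The 18 biological samples formed 6 groups of 3, controls and knockouts at days 0, 2 and 3. The controls were 2 biological replicates of HM1 (Nup133+/+, XY) and line 1A4 (Nup133+/+, Sox1gfp/+, XY), which derives from a blastocyst. The knockouts were lines 14 and 19 (Nup133-/-, XY, for line 19 only likely so per its label), edited from HM1 with CRISPR/Cas9, and the blastocyst-derived line 319 (Nup133merm/merm, Sox1gfp/+). Line 319 is XX and has 42 chromosomes, with extra copies of chromosomes 8 and 12. Each knockout line was sampled once per day, so its value holds the line, its karyotype and its culture together. At day 0 all lines came from medium with serum and LIF, the factor that keeps ES cells undifferentiated, after removal of fibroblast feeders. Day 2 cells had been in N2B27, a serum-free medium, and day 3 cells had also received 1 µM all-trans retinoic acid (RA) for the last 24 h. The effect of RA and that of a further day in culture cannot be told apart.

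In the embryo, the caudal epiblast holds neuromesodermal progenitors (NMPs), which give rise to both spinal cord and paraxial mesoderm. Wnt and FGF signals keep these cells, and RA from the somites promotes their neural differentiation. The Cdx factors carry such signals to the trunk Hox genes. Nkx1-2 marks the progenitors of the caudal lateral epiblast, whereas Tbx6 and Msgn1 act in the step to presomitic mesoderm, and Tbx6 there represses the neural gene Sox2.

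Gene counts per sample ranged from 16.5 to 54.4 M. Levels are counts per 1000000 (CPM) scaled with TMM factors, fold changes and adjusted p-values are from edgeR's quasi-likelihood test with Benjamini-Hochberg adjustment over the whole table, and "called" means an adjusted p below 0.05. Nup133 itself was between 180 and 323 CPM in the 9 control samples and between 14.3 and 37.1 CPM in the 9 knockout samples. Sums over ES cell markers such as Pou5f1 and Nanog fell from 3240 to 4500 CPM at day 0 to 102 to 402 CPM at day 3 over all samples. In bulk RNA, fewer cells that express a gene and less RNA per cell cannot be told apart.

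The members were weakly expressed in ES cells and went different ways during differentiation. Cdx1 was nearly lost at day 2 and was then by far highest at day 3 in every series, and Nkx1-2 was called higher by day 2 in controls and from day 2 to day 3 in knockouts. Tbx6 rose modestly by day 2 in both genotypes, while Msgn1 fell in controls to a few counts. At day 0 the knockout samples lay below every control sample for Cdx2, Nkx1-2 and Msgn1, and Msgn1 passed the test. At day 3 Cdx2 passed the test in the other direction, a call that rested on line 319.

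**Figure D1:**
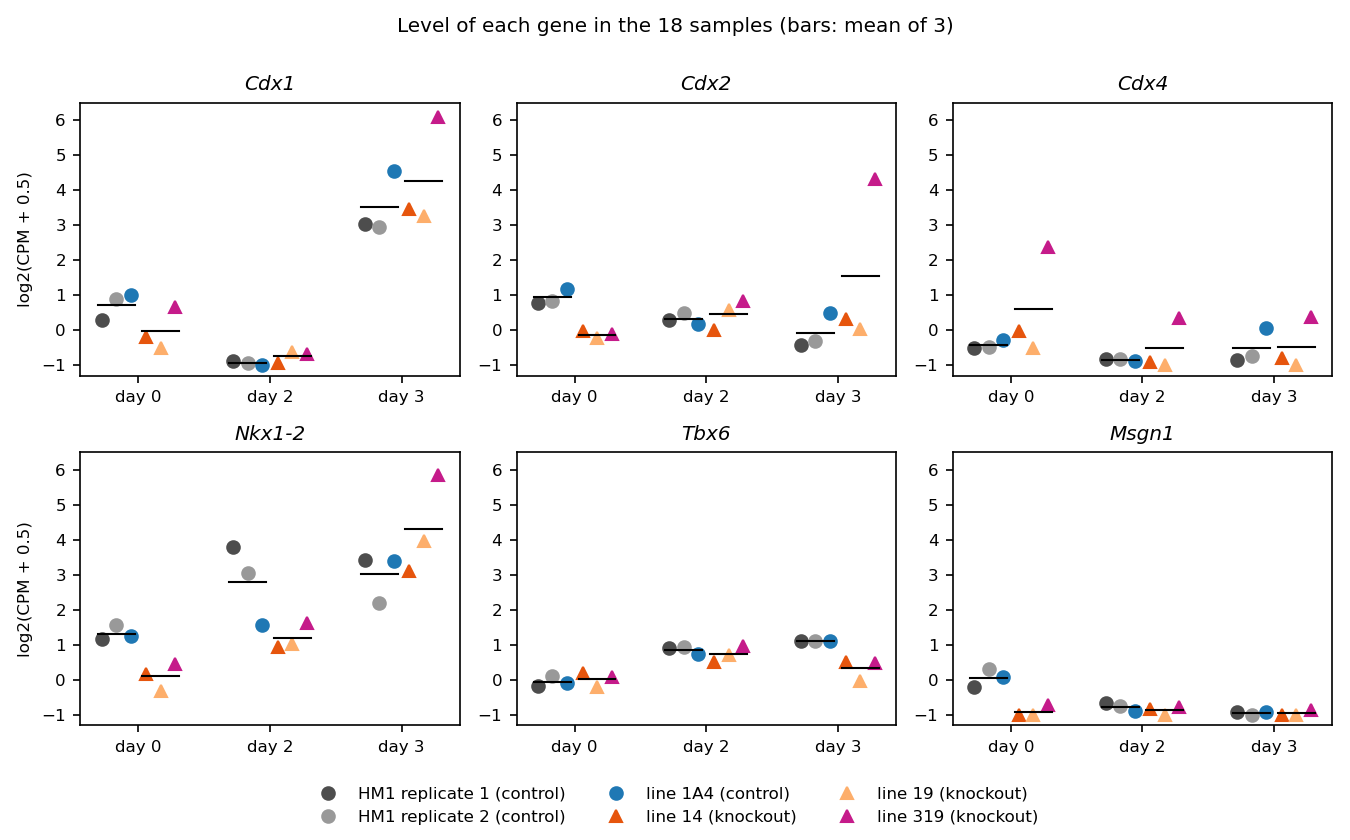
Level of each of the 6 genes as log2(CPM + 0.5) in every sample, with the 3 days on the x axis, circles for controls, triangles for knockouts and a bar for the mean of each group of 3. Cdx1 reached 7.25 to 67.8 CPM at day 3 after at most 3 counts per sample at day 2, and line 319 was the highest sample for Cdx1, Cdx2 and Nkx1-2 at day 3 and for Cdx4 at all 3 days.

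Per kilobase of transcript, which allows levels to be compared between genes, the control order at day 0 was Msgn1 with a mean of 0.907 CPM per kb, Cdx1 with 0.684, Cdx2 with 0.63, Nkx1-2 with 0.617, Tbx6 with 0.271 and Cdx4 with 0.126. The ranges of the first 4 overlapped, and Tbx6 and Cdx4 each lay below the gene before them in every control. At day 2 Nkx1-2 led with 2.43 CPM per kb, followed by Tbx6 with 0.761, Cdx2 with 0.332, Msgn1 with 0.146, Cdx4 with 0.0302 and Cdx1 with 0.013. By day 3 the control order was led by Cdx1 at 7.18 CPM per kb and Nkx1-2 at 2.49, followed by Tbx6 at 0.96, Cdx2 at 0.214, Cdx4 at 0.119 and Msgn1 at 0.0288. The ranges of Cdx2 and Cdx4 overlapped there, as did those of Cdx4 and Msgn1, whereas Tbx6 was above all of them in all 3 controls. In knockouts Cdx4 led at day 0 with 0.907 CPM per kb, through line 319, Tbx6 at day 2 with 0.678 and Cdx1 at day 3 with 16.7, followed by Nkx1-2 with 8.23.

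Cdx1 lies on chromosome 18 on the minus strand, at chr18:61018862-61036199 of GRCm38, with 3 exons, and is known as a direct target of RA and Wnt signalling. At day 0 it was at 0.728, 1.35 and 1.52 CPM in HM1 replicate 1, HM1 replicate 2 and line 1A4, and at 0.377, 0.209 and 1.08 CPM in lines 14, 19 and 319. Lines 14 and 19 lay below every control and line 319 among them. At day 2 the same samples held 2, 1 and 0 counts in controls and 1, 2 and 3 in knockouts, so no fold between genotypes was taken. At day 3 Cdx1 was at 7.67, 7.25 and 22.8 CPM in the controls and at 10.5, 9.2 and 67.8 CPM in the knockouts. Both blastocyst-derived lines stood above all 4 samples of HM1 origin, whatever their genotype. Summed over samples, the level at day 3 was 596 times that at day 2 in controls (95% interval 204 to 2890, counting error only) and 407 times in knockouts (187 to 1110). Cdx1 was called in both directions of its course: from day 0 to day 2 it fell by 5.81 ± 0.78 (SE) on the log2 scale in controls (adjusted p = 5.1e-05) and by 2.75 ± 0.77 in knockouts (adjusted p = 0.012). The latter call was lost without line 14 (adjusted p = 0.12), without line 319 (adjusted p = 0.054) and without the background term (adjusted p = 0.071). From day 2 to day 3 the adjusted p was 6.3e-07 in controls and 6.7e-07 in knockouts.

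Between genotypes Cdx1 was not called over all lines. The difference, knockout against control, was -1.43 ± 0.50 log2 at day 0 (adjusted p = 0.25) and 0.89 ± 0.41 at day 3 (adjusted p = 0.22). At day 0 it was called without line 1A4 (-2.09 ± 0.43, adjusted p = 0.036) and was -0.93 without HM1 replicate 2 (adjusted p = 0.94). At day 3 it was 0.20 without line 319 (adjusted p = 0.77). Set against controls of its own background on the log2(CPM + 0.5) scale, the day 3 difference was 0.46 in line 14, 0.29 in line 19 and 1.55 in line 319.

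Cdx2 lies at chr5:147300805-147307270 on the minus strand of GRCm38, with 3 exons. It is required for posterior axis growth and is also a defining factor of the trophectoderm, the outer layer of the blastocyst. At day 0 it was at 1.22, 1.3 and 1.76 CPM in HM1 replicates 1 and 2 and line 1A4, and at 0.48, 0.349 and 0.428 CPM in lines 14, 19 and 319. The groups did not overlap, and all 3 knockout lines were within a narrow low range. The day 0 difference of -1.79 ± 0.86 log2 nevertheless missed the threshold (adjusted p = 0.49). It was called when day 0 was fitted alone (-1.76 ± 0.29, adjusted p = 0.042), and without line 319 at day 3 its adjusted p was 0.061.

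At day 2 the Cdx2 groups overlapped, with 0.719, 0.907 and 0.626 CPM in controls and 0.513, 0.98 and 1.3 CPM in knockouts (0.02 ± 0.89 log2, adjusted p = 0.99). At day 3 HM1 replicates 1 and 2 and line 1A4 were at 0.242, 0.301 and 0.911 CPM, lines 14 and 19 at 0.744 and 0.515 CPM, and line 319 at 19.7 CPM. Line 319 thus stood far above every other sample, while lines 14 and 19 were above both HM1 replicates and below line 1A4. The difference of 3.26 ± 0.89 log2 was called (adjusted p = 0.045). Without the sample of line 319 at day 3 it was 0.68 ± 0.48 (adjusted p = 0.44), so the call rested on that sample, which held 761 of the 821 knockout counts. From day 2 to day 3 Cdx2 changed in knockouts by 2.23 ± 0.87 log2 (adjusted p = 0.06). That change was called without the background term (2.94, adjusted p = 0.033), without line 19 (3.09, adjusted p = 0.023) and in DESeq2 (2.16, adjusted p = 0.016), and was -0.25 without line 319 at day 3. The genotype call was also lost without any 1 of the 3 control series, with adjusted p-values of 0.22 (HM1 replicate 1), 0.23 (HM1 replicate 2) and 0.24 (line 1A4), and with a random replicate block in limma-voom (2.53 ± 0.95, adjusted p = 0.12). Further settings that lost it were no filter on low counts (adjusted p = 0.13), no background term (0.053), lines of HM1 origin alone (0.11) and summed transcripts (0.054).

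Set against controls of its own background on the log2(CPM + 0.5) scale, Cdx2 at day 3 was higher by 3.84 in line 319, 0.69 in line 14 and 0.4 in line 19. Each value is from 1 knockout sample. A fit that gave each background its own genotype difference put the difference between backgrounds at 3.18 ± 0.61 log2 for Cdx2 at day 3 (adjusted p = 0.13), a test that 0.0219% of all genes passed. In that fit the difference was 4.43 log2 between lines 319 and 1A4 and 1.25 log2 among the lines of HM1 origin. Lines 319 and 1A4 are 1 sample each there and are assumed to vary as the samples of HM1 origin do. Line 319 differs from 1A4 in karyotype as well as in Nup133, and these cannot be told apart.

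Trophectoderm markers were summed over the same samples. The summed level of the 10 genes at day 3 was 129 CPM in line 319, 78.3 and 51 CPM in lines 14 and 19, and between 155 and 295 CPM in controls. Line 319 was the highest knockout and line 1A4, at 295 CPM, the highest control. Krt8 and Krt18 made up most of the sum in every sample at that day. Krt18 was called lower in knockouts (-1.62 ± 0.45 log2, an adjusted p that rounds to 0.05), 1 of 9 tested where 5.2% of all genes were called. Called or not, 6 of the 9 were lower at day 3 and 3 higher. Among the latter was Gata3, another trophectoderm factor gene, at 1.04 to 1.69 CPM in controls and 3.72 to 4.05 CPM in knockouts. Elf5, a defining factor of trophoblast stem cells, held at most 3 counts in every sample. At day 0 the sum was 172 to 417 CPM in controls and 73.2 to 122 CPM in knockouts, most of it from a few genes. Of 9 tested genes, 2 keratin genes were called lower at day 0, where 0.788% of all genes were: Krt8 (-2.83 ± 0.52 log2, adjusted p = 0.014) and Krt18 (-2.49 ± 0.47, adjusted p = 0.016). Gata3 was at 6.63 CPM in line 319 and 0.199 CPM in line 1A4 at day 0. The part of such cells in the day 0 difference was not tested.

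Cdx4 lies at chrX:103321398-103330592 on the plus strand of GRCm38, with 3 exons, and acts with the other Cdx genes in the posterior embryo. At day 0 it held 8, 9 and 8 counts in HM1 replicates 1 and 2 and line 1A4, 14 and 9 in lines 14 and 19, and 228 in line 319. These counts correspond to 0.208 to 0.319 CPM in controls, 0.48 and 0.209 CPM in lines 14 and 19 and 4.65 CPM in line 319. A single line therefore stood apart, and the groups overlapped. It remained the highest sample at day 2, with 18 counts against at most 3 elsewhere, and at day 3, where it held 31 counts beside 21 in line 1A4 and at most 5 in the samples of HM1 origin. On the log2(CPM + 0.5) scale line 319 lay 2.65 above line 1A4 at day 0, a difference between single samples. In the fit that gave each background its own genotype difference, it was 3.85 log2, again from single samples. Line 319 has 2 X chromosomes where the other lines have 1, and the part of this in the Cdx4 level was not tested.

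Over all 3 lines, the genotype difference of Cdx4 was 1.80 ± 0.79 log2 at day 0 (adjusted p = 0.41), 1.44 ± 1.08 at day 2 (adjusted p = 0.47) and 0.14 ± 0.87 at day 3 (adjusted p = 0.95). The last value turned to -0.63 without line 319 at day 3. In knockouts from day 0 to day 2, Cdx4 fell by 2.62 ± 0.81 log2 (adjusted p = 0.02). That call was lost without line 14 (adjusted p = 0.14) and without the background term (adjusted p = 0.12). In controls the change was -2.25 ± 1.03 (adjusted p = 0.1), and with the cell series as a replicate block it was called (-2.04 ± 0.69, adjusted p = 0.036).

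Nkx1-2 lies at chr7:132594878-132599637 on the minus strand of GRCm38, with 2 exons, and encodes a homeodomain factor of the preneural tube and caudal lateral epiblast. The opposite-strand gene Gm16764 shares 541 of its 3264 exonic bases but held at most 3 counts in any sample. At day 0 Nkx1-2 was at 1.72, 2.45 and 1.88 CPM in HM1 replicates 1 and 2 and line 1A4, and at 0.617, 0.302 and 0.857 CPM in lines 14, 19 and 319. All 3 knockout lines were below all controls, and the difference of -1.86 ± 0.71 log2 did not pass the test (adjusted p = 0.31).

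At day 2 the HM1 replicates had risen to 13.5 and 7.79 CPM, while line 1A4 was at 2.44 CPM and lines 14, 19 and 319 were at 1.41, 1.51 and 2.55 CPM. The HM1 replicates were the highest samples, and the groups overlapped because line 1A4 lay below line 319. The genotype difference was -2.30 ± 0.68 log2 over all lines (adjusted p = 0.091) and -2.88 ± 0.53 among the lines of HM1 origin alone, where it was called (adjusted p = 0.037). The rise from day 0 among the lines of HM1 origin was 2.37 ± 0.49 log2 in controls and 1.71 ± 0.63 in knockouts, and the difference between these, -0.66 ± 0.81, did not pass the test (adjusted p = 0.71). The genotype difference at day 2 was also called over all lines by DESeq2 (adjusted p = 0.0071). So it was by edgeR without line 1A4 (adjusted p = 0.019) and without line 319 (adjusted p = 0.041). This day 2 difference was smallest without HM1 replicate 1 (-1.64, adjusted p = 0.42). It was also smaller with a random replicate block in limma-voom (-1.75, adjusted p = 0.29) and with day 2 fitted alone (-1.92, adjusted p = 0.54). The difference between backgrounds, 2.94 ± 0.89 log2 with lines 319 and 1A4 at 1 sample each, did not pass the test (adjusted p = 0.18), which 0.547% of all genes passed.

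By day 3 Nkx1-2 was at 10.3, 4.11 and 9.97 CPM in controls and at 8.18, 15.1 and 57.3 CPM in lines 14, 19 and 319. The groups overlapped, with line 319 the highest sample. From day 2 to day 3 the gene rose in knockouts by 3.74 ± 0.70 log2 (adjusted p = 0.001), and in controls the change was -0.11 ± 0.62 (adjusted p = 0.93). The controls went both ways. The HM1 replicates fell, from 13.5 to 10.3 and from 7.79 to 4.11 CPM, while line 1A4 rose from 2.44 to 9.97 CPM. From day 0 to day 2 Nkx1-2 rose in controls by 2.07 ± 0.65 (adjusted p = 0.021), and the knockout value was 1.63 ± 0.73 (adjusted p = 0.093). The control call was lost without HM1 replicate 1 (adjusted p = 0.24), without HM1 replicate 2 (adjusted p = 0.079), without the filter on low counts (adjusted p = 0.074) and with a random replicate block in limma-voom (1.55 ± 0.81, adjusted p = 0.15). The test of the difference in course between genotypes from day 2 to day 3 gave 3.85 ± 0.91 log2 with an adjusted p of 0.24 in edgeR and 0.0042 in DESeq2. At day 3 the genotypes differed by 1.55 ± 0.63 log2 (adjusted p = 0.16), and by 0.53 ± 0.59 without line 319 at that day.

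Tbx6 lies at chr7:126781483-126785560 on the plus strand of GRCm38, and its representative transcript has 8 exons. It was the most even member over the lines. At day 0 it was at 0.39, 0.577 and 0.439 CPM in HM1 replicates 1 and 2 and line 1A4 and at 0.651, 0.372 and 0.551 CPM in lines 14, 19 and 319, with overlapping groups. By day 2 it had risen to 1.15 to 1.42 CPM in controls and 0.912 to 1.47 CPM in knockouts. The rise was 1.47 ± 0.32 log2 in controls (adjusted p = 0.0024) and 1.15 ± 0.33 in knockouts (adjusted p = 0.013). The control call was lost without HM1 replicate 1 (adjusted p = 0.069). The knockout call was lost without line 319 (adjusted p = 0.055) and among the lines of HM1 origin alone (adjusted p = 0.081).

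At day 3 Tbx6 was at 1.67, 1.64 and 1.67 CPM in the 3 controls and was at 0.926, 0.481 and 0.906 CPM in lines 14, 19 and 319. Every knockout line was below every control, in both backgrounds. The difference of -1.09 ± 0.31 log2 just missed the threshold (adjusted p = 0.053). Its size was between -0.86 and -1.29 in all 17 alternative analyses, and its adjusted p was between 0.012 and 0.25. It was called with DESeq2, with a random replicate block in limma-voom (-1.10 ± 0.30, adjusted p = 0.036), without line 319 (adjusted p = 0.036) and without line 19 at day 2 (adjusted p = 0.027).

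Msgn1 lies at chr12:11208360-11208972 on the minus strand of GRCm38, in a single exon, and encodes a basic helix-loop-helix factor of presomitic mesoderm. At day 0 it held 14, 31 and 14 counts in HM1 replicates 1 and 2 and line 1A4, 0 in line 14, 0 in line 19 and 5 in line 319. The controls were at 0.364 to 0.745 CPM, line 319 was at 0.102 CPM, and 0 counts allow up to 0.103 CPM in line 14 and 0.0697 CPM in line 19 (3 counts). The groups did not overlap. Line 319, the only knockout line with any counts at day 0, has an extra copy of chromosome 12, and the part of this was not tested. Summed over samples, the control level was 13.6 times the knockout level (95% interval 5.51 to 43.4, counting error only). Msgn1 was called lower in knockouts (-3.85 ± 0.83 log2, adjusted p = 0.038). The call was lost without HM1 replicate 1 (adjusted p = 0.16), HM1 replicate 2 (0.38), line 14 (0.19) or line 19 (0.091), with the direction kept each time. It was also lost when day 0 was fitted alone (0.09), without the background term (0.069) and with transcripts summed (0.062).

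In controls from day 0 to day 2, Msgn1 fell by 2.61 ± 0.72 log2 (adjusted p = 0.011), to 6, 4 and 2 counts, a call lost without HM1 replicate 2 (adjusted p = 0.14). The knockouts then held 3, 0 and 2 counts. At day 3 no sample held more than 2 counts, so no genotype fold was taken.

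In edgeR, Msgn1 at day 0 and Cdx2 at day 3 were the only members called between genotypes, and the stretches of genome upstream of these 2 genes are shown for that reason. RefSeq's promoter table (GRCm38.p6) held entries for 5 of the 6 members, all but Cdx1. The 250 bases before each RefSeq start were searched on both strands for 4 short motifs: CTTTGA (the core bound by TCF/LEF factors of the Wnt pathway), TTTATG (the CDX core), AGGTGT (the T-box core) and AGGTCA (the nuclear receptor half-site that RA receptors use). The RefSeq start lies 24 bases inside the GENCODE gene for Msgn1 and 21 bases inside it for Cdx2. The printed stretches therefore stop before the GENCODE start, at 226 and 229 bases. Capitals mark the matches, which were found in Msgn1 and not in Cdx2.
Msgn1, chr12:11208973-11209198, minus strand: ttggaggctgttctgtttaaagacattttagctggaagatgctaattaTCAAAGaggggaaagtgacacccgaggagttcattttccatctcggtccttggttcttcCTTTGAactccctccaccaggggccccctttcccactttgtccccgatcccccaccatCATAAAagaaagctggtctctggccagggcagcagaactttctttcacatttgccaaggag
Cdx2, chr5:147307271-147307499, minus strand: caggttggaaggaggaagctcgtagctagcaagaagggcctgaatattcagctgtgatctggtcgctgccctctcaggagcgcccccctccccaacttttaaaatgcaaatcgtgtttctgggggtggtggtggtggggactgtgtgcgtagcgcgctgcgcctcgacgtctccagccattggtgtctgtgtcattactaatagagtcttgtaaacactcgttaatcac

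Msgn1 held the TCF/LEF letters on the same strand 119 to 114 bases before its GENCODE start and on the opposite strand 178 to 173 bases before it, and the CDX letters on the opposite strand 61 to 56 bases before it. The only other match among the 5 members was the T-box core in Cdx4. Of 32851 promoter windows of the 250 bases searched, 13.8% held the TCF/LEF letters, 10.8% the CDX letters, 11.8% the T-box letters and 14% the half-site letters. A match is only a description of the sequence.

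Read together, the members differed between genotypes in few calls. At day 0, 1 of 6 was called (Msgn1, lower), where 0.854% of all genes tested were called, and 3 of 6 had all knockout samples below all controls, where 9.7% of all genes did. At day 2, 0 of 6 were called in edgeR, where 1.6% of all genes were, with 1 member (Nkx1-2) at an unadjusted p below 0.05 (20.4% of all genes) and 1 called by DESeq2. No member's groups were apart at day 2, where 21.7% of all genes had groups that did not overlap in either direction. At day 3, 1 of 6 was called (Cdx2, higher), where 5.2% of all genes were, and 1 (Tbx6) was below controls in every knockout sample, where 17.6% of all genes were. The members' median difference was -1.61 log2 at day 0, -0.19 at day 2 without Cdx1 and 0.89 at day 3 without Msgn1, the genes for which no fold was taken, where the median of all genes was 0.01 to 0.02.

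**Figure D2:**
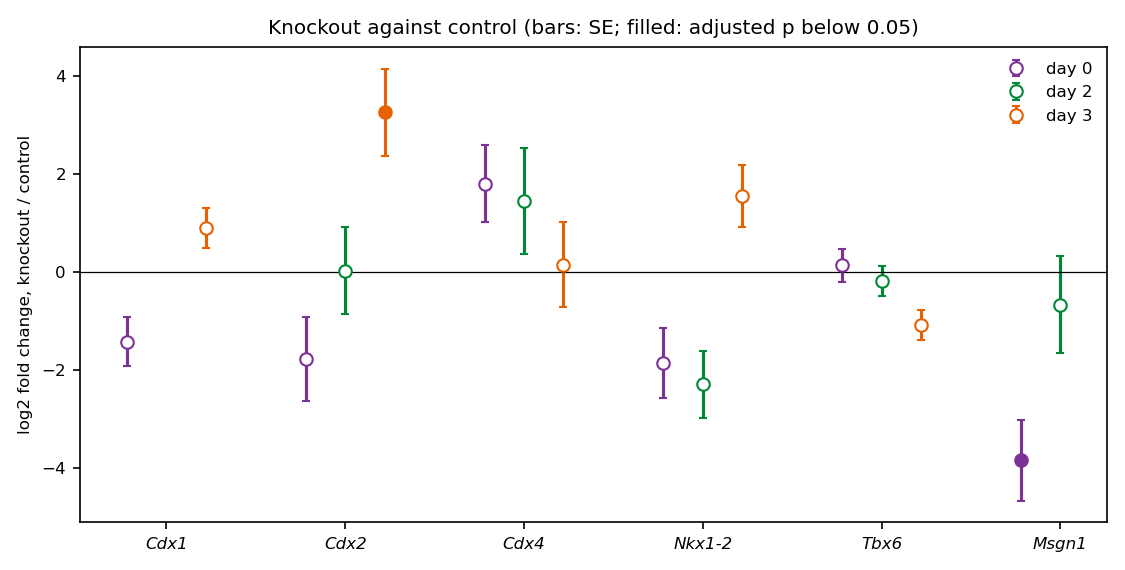
Log2 fold change of knockout against control for the 6 genes at days 0, 2 and 3, with bars for the standard error and filled points for an adjusted p below 0.05. Msgn1 at day 0 (-3.85) and Cdx2 at day 3 (3.26) are filled. Cdx1 at day 2 and Msgn1 at day 3 are left out because no sample held more than 3 counts.

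**Figure D3:**
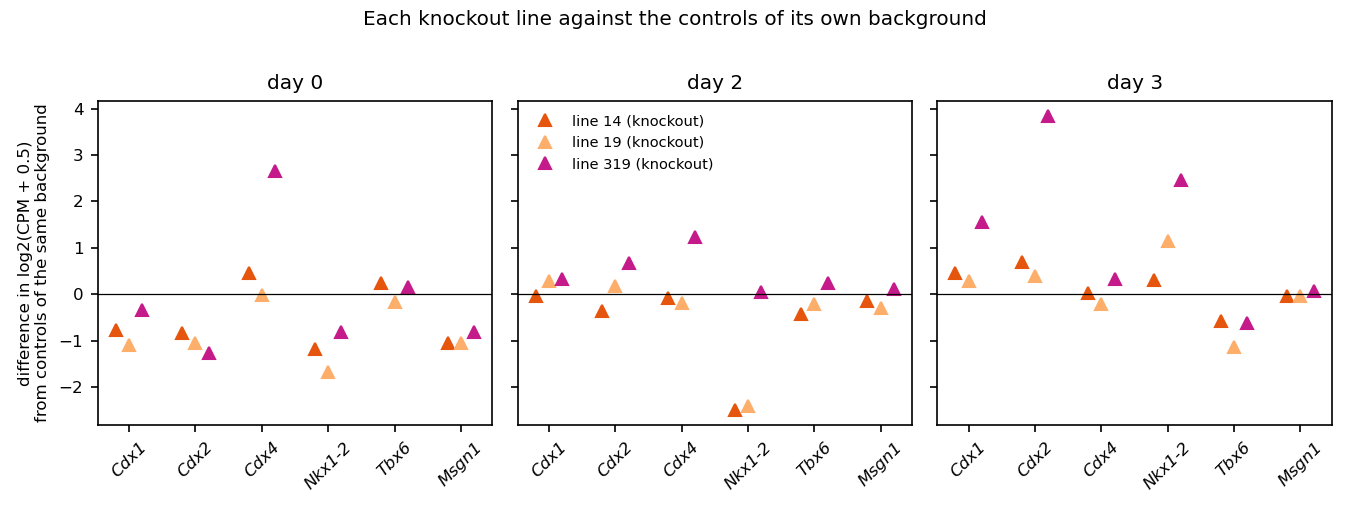
Difference of each knockout line from the controls of its own background, in log2(CPM + 0.5), for the 6 genes at each day, with lines 14 and 19 set against the mean of the HM1 replicates and line 319 against line 1A4. All 3 lines are below 0 for Cdx1, Cdx2, Nkx1-2 and Msgn1 at day 0 and for Tbx6 at day 3, and line 319 lies apart for Cdx4 at day 0 (2.65) and Cdx2 at day 3 (3.84).

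Changes over time were tested within each genotype. From day 0 to day 2, 4 of 6 were called in controls (Tbx6 and Nkx1-2 higher, Cdx1 and Msgn1 lower), where 35.2% of all genes were, and 3 of 6 in knockouts (Tbx6 higher, Cdx1 and Cdx4 lower), where 35.9% were. From day 2 to day 3, 1 of 6 was called in controls (Cdx1), where 21.4% of all genes were, and 2 of 6 in knockouts (Cdx1 and Nkx1-2), where 33.6% were. The counts from day 2 to day 3 lie near these shares. The genotypes' time courses were also tested against each other. Of the 6 members, 0 were called from day 0 to day 2 (0.0219% of all genes), 0 from day 2 to day 3 (0.0383%) and 0 from day 0 to day 3 (0.427%) in edgeR, with 2, 2 and 4 members at an unadjusted p below 0.05, where 7.16%, 8.9% and 10.9% of all genes were. The 2 from day 0 to day 2 were Msgn1 and Cdx1, and for Cdx1 no genotype fold was taken at day 2. The smallest adjusted p was that of Cdx2 from day 0 to day 3 (5.05 ± 1.23 log2, adjusted p = 0.094). DESeq2 called 0, 1 and 3 members, which were Nkx1-2 from day 2 to day 3 and Cdx1, Cdx2 and Nkx1-2 from day 0 to day 3.

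Other regulators of the caudal epiblast were counted in the same way. Of 16 tested NMP genes and upstream signals, 5 were called lower in knockouts at day 0 and 0 higher (1 at an unadjusted p below 0.05, 0 in DESeq2), where 0.788% of all genes were called lower, and their median was -1.13 log2. Among them, the mesoderm factor gene T (brachyury) was at 40.2 ± 17.7 CPM (SD, n = 3) in controls and 3.06 ± 1.41 CPM in knockouts (-3.72 ± 0.55 log2, adjusted p = 0.0041). The Wnt ligand gene Wnt3 was at 8.02 ± 1.91 and 0.875 ± 0.194 CPM (adjusted p = 0.025), and the FGF ligand gene Fgf8 at 6.88 ± 3.32 and 0.687 ± 0.21 CPM (adjusted p = 0.0084). Cyp26a1, which encodes an enzyme that breaks down RA, was at 9.33 ± 4.0 and 0.683 ± 0.213 CPM (adjusted p = 7.5e-05). At day 2, T and Cyp26a1 were called lower and Sox2 higher (0.83 ± 0.16 log2, adjusted p = 0.02), 3 of 16 where 1.6% of all genes were called. At day 3, 0 were called lower (2 at an unadjusted p below 0.05, 0 in DESeq2) and 2 higher, where 2.75% of all genes were: Cyp26a1 (1.24 ± 0.30 log2, adjusted p = 0.028) and the caudal zinc finger gene Sp8 (2.03 ± 0.47, adjusted p = 0.024).

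Downstream of Tbx6 and Msgn1, 16 of 18 presomitic mesoderm genes were tested. At day 0 the Wnt agonist gene Rspo3 was called lower (-3.13 ± 0.56 log2, adjusted p = 0.013), 1 of 16 where 0.788% of all genes were. At day 2, 0 were called in edgeR, where 7 were higher and 2 lower at an unadjusted p below 0.05 (20.4% of all genes in either direction), and DESeq2 called 4 higher. At day 3 the Notch modifier gene Lfng was called lower (-1.50 ± 0.33, adjusted p = 0.019) and the protocadherin gene Pcdh8 higher (1.37 ± 0.37, adjusted p = 0.045), 2 of 16 where 5.2% of all genes were called. Their median difference stayed at 0.03 log2 at day 0 and 0.05 at day 3 and was 0.62 at day 2.

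The trunk Hox genes, which Cdx factors are known to control, rose from day 2 to day 3, with 12 of 16 tested called higher in controls (12.5% of all genes) and 16 of 16 in knockouts (17.6% of all genes). Between genotypes 0 of 16 were called at day 0 (1 at an unadjusted p below 0.05, 0 in DESeq2), where 0.854% of all genes were. At day 2, 1 was called, higher, where 1.6% of all genes were called. At day 3, 10 were called higher, where 2.75% of all genes were. Of the 16, 11 held more than 3 counts in some sample at day 0, 13 at day 2 and 16 at day 3. Their median was 1.88 log2 at day 3. Hoxb9 went from 2.3 ± 0.852 CPM (SD, n = 3) in controls to 18.9 ± 9.77 CPM in knockouts at day 3 (3.00 ± 0.47 log2, adjusted p = 0.0035). Hoxc6, Hoxc8 and Hoxc9 were at 0.115, 0.109 and 0.0372 CPM in controls and at 1.31, 1.23 and 0.432 CPM in knockouts, with adjusted p-values of 0.011, 0.0085 and 0.019. Hoxc9 held at most 3 counts in any control sample. Of the Cdx genes, Cdx2 was called higher at that day (3.26 ± 0.89 log2, adjusted p = 0.045). That call rested on 1 knockout sample. Cdx1 (0.89 ± 0.41, adjusted p = 0.22) and Cdx4 (0.14 ± 0.87, adjusted p = 0.95) were not called. Knockout and control samples overlapped for each Cdx gene. Set against controls of its own background, every knockout line was higher for Cdx1 and Cdx2, and the lines went both ways for Cdx4. The part of the Cdx genes in the Hox difference was not tested.

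**Figure D4:**
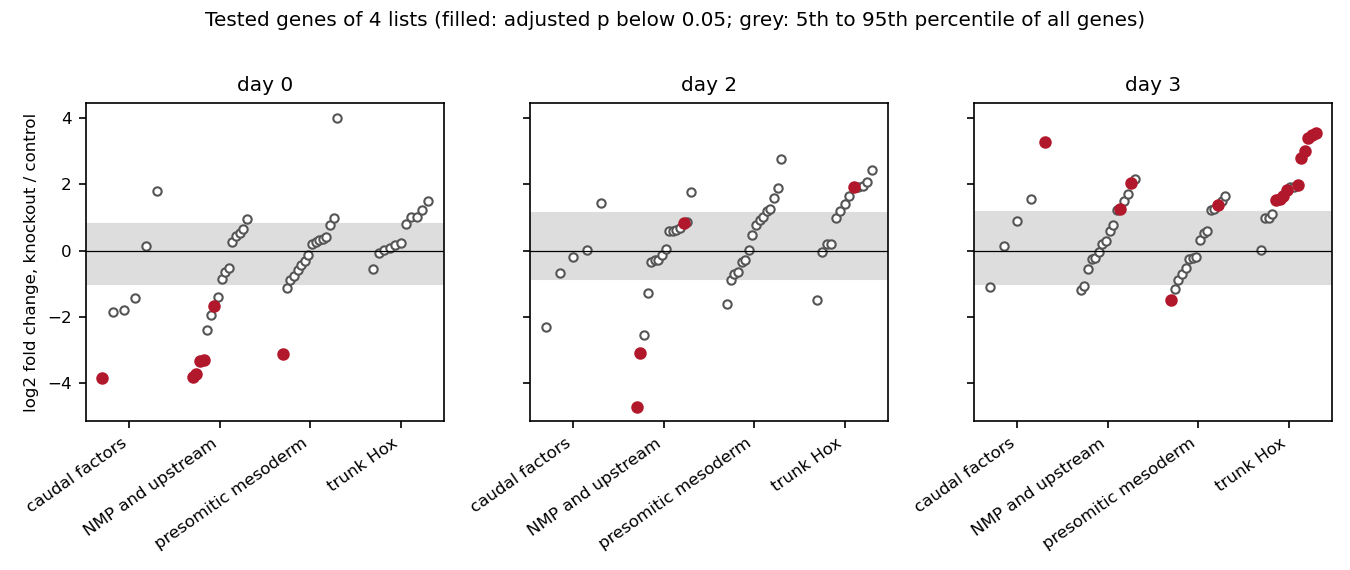
Log2 fold change of knockout against control at each day for the tested genes of 4 lists, in order of size within each list, with filled points for an adjusted p below 0.05 and a grey band from the 5th to the 95th percentile of all genes. Genes with at most 3 counts in every sample of a day are left out. Filled points lie below 0 at day 0 (5 NMP and upstream genes and Rspo3 beside Msgn1) and mostly above 0 at day 3 (10 trunk Hox genes).

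The genes most like each member were taken by the highest Pearson correlation of log2(CPM + 0.5) over the 18 samples, among the 15440 genes whose mean reached 1 CPM in some group. The points share lines and days, so the values are a description. Cdx1 was followed most closely by Pax7 (r = 0.961), Clgn (0.96) and Meox1 (0.959). Meox1, a homeobox gene of the somites, was at 3.39, 7.38 and 7.42 CPM in HM1 replicates 1 and 2 and line 1A4 at day 3 and at 10.3, 9.58 and 43.9 CPM in lines 14, 19 and 319. Cdx2 was most like Wnt8a (r = 0.783), Sct (0.778) and Spesp1 (0.771). Wnt8a, a Wnt ligand gene of the primitive streak, was at 2.26, 3.14 and 7.03 CPM in the controls at day 3, at 3.07 and 2.44 CPM in lines 14 and 19 and at 71.3 CPM in line 319. The sample of line 319 at day 3 was therefore the highest for Wnt8a as for Cdx2. Nkx1-2 was most like Kcna1 (r = 0.889), Agbl2 (0.882) and Ppl (0.88), Tbx6 like Unc93b1 (0.92), Atp2c2 (0.907) and C330021F23Rik (0.904), and Cdx4 like Gm20559 (0.957) and Klhl34 (0.917). Msgn1 stayed below 1 CPM in every group and was not compared. Among the members themselves the highest value was that of Cdx1 and Nkx1-2 (r = 0.70), and the lowest that of Tbx6 and Msgn1 (r = -0.42).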

How the data were processed

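The deposited files hold raw read counts per Ensembl transcript, 1 file per library. The authors used bcl2fastq 2.17.1.14, STAR 2.4.0k, SAMtools, HTSeq and the mm10 build, per the submitters' processing notes. Which annotation was used, and whether strand was, is not given in the sources used here, although the libraries were strand-specific per the labels' protocols. Transcripts were mapped to genes with GENCODE M21 (GRCm38), which matched 108214 of 110379 identifiers. Unmatched ones held 1.44% to 2.46% of a sample's counts. Each gene took the counts of 1 transcript, because reads were counted for each transcript they overlapped. The 4 technical replicates of each of 18 samples were summed, since they varied by counting error alone (chi-square per degree of freedom 1.01 to 1.03).

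All samples entered 1 quasi-likelihood fit in edgeR 4.0.16 (R 4.3.3) with TMM scaling, 6 group means and a term for background. It had 11 residual degrees of freedom. DESeq2 1.42.0 and limma 3.58.1 served as alternatives. Samples of a series come from the same line. Their deviations from group means, with background not removed, correlated above 0.1 in 15 of 18 pairs of days (r from -0.14 to 0.52). With the background term in limma-voom, the estimated correlation within a series was 0.00947. The series was used as a block in alternatives. The labels do not say that HM1 replicates were separate cultures, so p-values measure the spread between these samples.

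The members were fixed by name. All 6 are described whatever their values, and of each list up to 4 called genes per day with the largest fold change are named. Members and lists were chosen with earlier results of these data known. Counting intervals and limits of 3 counts cover counting error only. Some items are not reported here.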

Additional observations from a re-analysis of the deposited data

How the results depend on the processing

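Over 15 to 17 alternatives for each difference of a single gene, 802 values kept their direction and their side of the threshold, 30 lost a call, 22 gained one and 31 changed sign. Between genotypes at day 0, 1 member was called in the main analysis and 0 without the background term, with transcripts summed and in DESeq2, where Msgn1 had no adjusted p. Leaving out 1 series gave 0 to 2. At day 2, 0 became 1 among lines of HM1 origin and in DESeq2, and 0 to 1 with 1 series left out. At day 3, 1 became 0 without a filter on low counts, without the background term, among lines of HM1 origin, without line 319 at that day (chosen after seeing the data) and with transcripts summed. It became 2 without line 19 at day 2 and in DESeq2, and 0 to 1 with 1 series left out. From day 0 to day 2, 4 calls in controls became 2 to 5 with 1 series left out, and 3 in knockouts became 1 without the background term, among lines of HM1 origin and at the lowest with 1 series left out. From day 2 to day 3, 1 call in controls became 2 among lines of HM1 origin, and 2 in knockouts became 3 without the background term, without line 19 and in DESeq2. In DESeq2 the test of differing courses called 1 member from day 2 to day 3 and 3 from day 0 to day 3. The cause of these changes was not tested.

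Values that changed sign were all of differences that were not called, here on the log2 scale. With 1 series left out, the difference between genotypes ranged for Tbx6 from -0.07 to 0.35 at day 0 (-0.02 without line 1A4), for Cdx2 from -0.79 to 0.44 at day 2, and for Cdx4 at day 2 from -0.67 to 2.04 and for Cdx4 at day 3 from -1.43 to 0.44. For Cdx2 at day 2 it was also -0.02 without the filter, -0.25 among lines of HM1 origin and -0.3 without line 19 at day 2, and for Cdx4 at day 3 it was -0.63 without line 319 at day 3, -0.2 with a random replicate block and -0.01 in DESeq2. Nkx1-2 from day 2 to day 3 in controls ranged from -0.56 to 0.19 with 1 series left out, and was 0.04 without the background term, 0.02 without line 319 at day 3 and 0.18 and 0.37 with the fixed and the random replicate block. In knockouts the ranges were -0.01 to 3.86 for Msgn1 from day 0 to day 2, and -0.09 to 3.09 for Cdx2 and -0.1 to 0.78 for Cdx4 from day 2 to day 3. Among lines of HM1 origin Cdx2 gave -0.09 there, and without line 319 at day 3 Cdx2 gave -0.25 and Cdx4 -0.62. In the tests of differing courses the ranges were -0.71 to 0.27 for Nkx1-2 and -0.51 to 0.02 for Tbx6 from day 0 to day 2 and -2.0 to 0.12 for Cdx4 from day 2 to day 3, and Nkx1-2 gave 0.12 with the random replicate block. With a replicate block, fixed in edgeR or random in limma-voom, no call of a member changed other than those given beside Cdx2, Cdx4, Nkx1-2 and Tbx6. The random block came with another test, and its estimated correlation within a series was 0.00947. A call that changed there changed with the test as well as the block.

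Over all genes, 156 were called between genotypes at day 0 (18 without HM1 replicate 2 to 556 in DESeq2), 292 at day 2 (0 with the day fitted alone to 1400 in DESeq2) and 951 at day 3 (17 without HM1 replicate 2 to 3007 without line 19 at day 2). Calls over time ranged from 2833 to 8904 around 6438 and from 1215 to 6362 around 3918 in controls. Another pseudocount, 0.1 or 1, moved 27 of 108 differences of single lines by more than the spread. Members at a few counts per sample, above all Msgn1 and Cdx4, are limited by depth.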

Other observations

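Markers of other cell types that the cultures could hold were also followed. Of 7 primitive endoderm genes, Foxa2 was called lower in knockouts at day 0 (-1.99 ± 0.39 log2, edgeR with Benjamini-Hochberg adjustment, adjusted p = 0.02), where 0.788% of all genes were called lower. Pdgfra was called higher at day 2 (1.47 ± 0.32, adjusted p = 0.032), where 1.6% of all genes were called. Pdgfra and Gata4 were called higher at day 3 (1.45 ± 0.30, adjusted p = 0.015, and 1.36 ± 0.31, adjusted p = 0.023), where 2.75% were. Called or not, 4 of the 7 genes were higher in knockouts at day 3 and 3 were lower. The sum of the 7 rose from 14.1 to 35.6 CPM over all samples at day 0 to 56.7 to 76.7 CPM at day 3. The fibroblast gene Postn was called lower at day 2, at 1.71 ± 1.2 CPM (SD, n = 3) in controls and at most 3 counts in any knockout (edgeR, adjusted p = 0.004). Postn was the only 1 of 7 tested feeder fibroblast genes called at day 2, where 1.6% of all genes were, and at day 3, where 5.2% were. It was at 2.54 ± 1.41 CPM (SD, n = 3) in controls and 0.243 ± 0.0341 CPM in knockouts at day 3 (-3.38 ± 0.57 log2, adjusted p = 0.0054), while the sum of the 8 feeder fibroblast genes overlapped between genotypes, at 119 to 171 CPM and 105 to 161 CPM. Pax6, a gene of neural progenitors, was at 30.2 ± 10.7 CPM in controls and 179 ± 143 CPM in knockouts at day 3 (2.25 ± 0.45 log2, adjusted p = 0.012). It was the only 1 of 5 neural progenitor genes called between genotypes at that day, where 5.2% of all genes were.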
